A study of Mus musculus with 6 samples.

Results

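The 9 genes described here encode enzymes that turn squalene into cholesterol: Sqle, Lss, Cyp51, Msmo1, Nsdhl, Hsd17b7, Ebp, Sc5d and Dhcr7. They were chosen by name as steps of this pathway and are 9 of the 54532 genes in the deposited table. The tested samples were mouse pancreatic buds taken at E12.5 and kept in explant culture for 2 days with 0.1 µM tetrabenazine (TBZ), a drug that blocks the vesicular monoamine transporter VMAT2. Control buds were cultured for the same time without TBZ, and both groups were in M199 medium with 10% fetal bovine serum and 0.1% DMSO, the drug's solvent. Each group had 3 RNA-seq libraries, and the comparison asks how blocking the VMAT2-monoamine pathway acts on gene expression in the developing pancreas. The labels name neither strain nor sex, do not say how many buds went into a library, and do not say that replicates were separate cultures, so the p-values reflect only how far these libraries differ, which may be technical variation. Serum in the medium is itself a source of cholesterol.

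Cells make cholesterol from acetyl-CoA through mevalonate to squalene, a linear hydrocarbon. The enzymes described here then oxidise and fold squalene into lanosterol, strip methyl groups from it and move or reduce its double bonds until cholesterol is reached. Transcription of nearly all these genes is known to be driven by SREBP2, a factor that is released from the endoplasmic reticulum membrane when sterols are scarce and held there by Scap and Insig when they are plentiful. Cholesterol is a membrane component of every cell, and in embryos it is also attached to Hedgehog ligands.

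As these genes share a known regulator, the stretch of 250 bases upstream of the transcription start was read from the RefSeq promoter table (GRCm38.p6, the same assembly as mm10) for the 8 genes that had an entry. A total of 10 windows was found, 3 of them for Dhcr7. Each was searched on both strands for TCACCNCA (a sterol regulatory element with 1 free base), CCAAT (the NF-Y box), GGGCGG (the Sp1 box) and CACGTG (an E-box). The letters were chosen after these sequences had been seen. CCAAT was present in 8 of the 10 windows, and 33.8% of the 32536 distinct windows in the table hold it. GGGCGG was present in 9 of the 10, against 33.0% of all windows. Each of the 8 genes had both in at least 1 window; Dhcr7, with 3 windows, had more chances than the others. CACGTG was found in 3 windows (of Hsd17b7, Sc5d and Dhcr7; 6.04% of all windows) and TCACCNCA in 2 (of Cyp51 and Hsd17b7; 3.63%). A match is a string of letters and was not tested for binding. The windows of Cyp51, which had the highest level, of Msmo1 and Hsd17b7, which fell in TBZ buds, and of Ebp, whose groups overlapped, are given 5′ to 3′ on the strand of the gene with the matches in capitals; no 2 matched motifs overlap in these 4 windows.
Cyp51 (chr5:4104698-4104947, - strand): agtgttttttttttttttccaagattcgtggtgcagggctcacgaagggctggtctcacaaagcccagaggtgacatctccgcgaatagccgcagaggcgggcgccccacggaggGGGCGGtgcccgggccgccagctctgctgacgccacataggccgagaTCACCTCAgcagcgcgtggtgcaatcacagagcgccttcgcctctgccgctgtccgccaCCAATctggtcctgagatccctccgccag
Msmo1 (chr8:64733579-64733828, - strand): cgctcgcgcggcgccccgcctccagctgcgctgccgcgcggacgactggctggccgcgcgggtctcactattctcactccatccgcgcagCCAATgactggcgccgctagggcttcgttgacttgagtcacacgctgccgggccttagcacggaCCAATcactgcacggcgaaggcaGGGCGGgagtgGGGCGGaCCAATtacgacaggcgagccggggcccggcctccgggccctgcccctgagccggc
Hsd17b7 (chr1:169969206-169969455, - strand): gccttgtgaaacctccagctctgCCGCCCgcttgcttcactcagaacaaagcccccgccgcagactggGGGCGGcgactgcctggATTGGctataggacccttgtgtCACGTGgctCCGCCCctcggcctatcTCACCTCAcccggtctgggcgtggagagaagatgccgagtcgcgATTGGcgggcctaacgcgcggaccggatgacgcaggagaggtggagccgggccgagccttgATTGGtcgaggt
Ebp (chrX:8193513-8193762, - strand): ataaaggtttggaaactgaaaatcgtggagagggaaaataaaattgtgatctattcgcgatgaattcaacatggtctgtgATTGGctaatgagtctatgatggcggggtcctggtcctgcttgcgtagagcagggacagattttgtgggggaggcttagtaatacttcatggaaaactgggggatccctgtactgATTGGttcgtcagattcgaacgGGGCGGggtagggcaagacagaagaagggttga
In Cyp51 the TCACCNCA match began 88 bases and the CCAAT match 29 bases upstream of the start. Hsd17b7 held TCACCNCA at 117 bases and 3 CCAAT matches at 165, 73 and 12 bases, all of them on the opposite strand as ATTGG. The Msmo1 window held 3 CCAAT matches, at 160, 96 and 55 bases. In Ebp there were 2 CCAAT matches, at 170 and 55 bases. Distances are from the RefSeq start, and the deposited gene spans of Cyp51, Msmo1 and Hsd17b7 begin further upstream than that start. All matches of Msmo1, the Cyp51 CCAAT match at 29 bases and the Hsd17b7 one at 12 bases therefore lie inside those spans.

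The libraries held 35.8 to 41.0 megareads counted to genes in TBZ and 41.0 to 50.6 megareads in control buds. The enzyme genes were measured deeply: their counts per library ran from 1043 (Ebp, TBZ replicate 3) to 15154 (Cyp51, control replicate 2), so that counting error alone was between 1.04% and 3.10% at the lowest count of each gene. All 9 passed the filter on low counts, which left 18226 genes for the test. Epithelial identity of the buds was checked by Pdx1, Ptf1a, Nkx6-1, Sox9, Cdh1 and Epcam, and each of these was detected in every library. Control replicate 3 stood apart in some genes of the neighbouring stomach and oesophagus. Pitx1 was at 5.93, 6.72 and 47.8 CPM (read counts scaled to library size by TMM) in control replicates 1 to 3. In TBZ replicates 1 to 3 it was at 1.51, 7.24 and 1.29 CPM. Barx1, of the same marker list, did not set control replicate 3 apart, at 109, 93.7 and 107 CPM in control replicates 1 to 3. Values that moved most without control replicate 3 are given beside the gene.

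All 9 enzyme genes had a lower fitted level in TBZ than in control buds, with a median log2 fold change of -0.24 and reductions from 3.27% (Ebp) to 19.2% (Msmo1). Msmo1 and Hsd17b7 fell at an adjusted p under 0.05 over all genes (edgeR quasi-likelihood test), and the other 7 did not pass. For 8 of the 9, the highest TBZ library lay below the lowest control library, Ebp being the exception. Across all tested genes, 0.0329% fell past the threshold, 7.03% lay wholly below control in this way, 49.9% had a log2 fold change below 0, and the median log2 fold change was 0.00031. In bulk RNA, fewer cells that use the pathway and less RNA per cell cannot be told apart. Together the 9 genes took 1214, 1279 and 1272 CPM in TBZ replicates 1 to 3, against 1473, 1419 and 1563 CPM in control replicates 1 to 3.

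Per kilobase, the levels spanned a wide range and kept their order between groups. Cyp51 was highest at 58.8 ± 1.65 FPKM in TBZ and 70.9 ± 3.27 FPKM in control buds (SD, n = 3 each), followed by Sqle, Msmo1, Nsdhl, Dhcr7, Sc5d, Lss, Ebp and Hsd17b7. Hsd17b7 was lowest, at 10.4 ± 0.157 FPKM in TBZ and 12.9 ± 0.297 FPKM in control buds (SD, n = 3 each). Neighbours in this order did not overlap within a group, except that Nsdhl and Dhcr7 overlapped in both groups and Ebp and Hsd17b7 overlapped in control buds. FPKM divides by the deposited gene length, from 2310 bases for Ebp to 10787 bases for Lss, so the order also depends on those gene models.

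**Figure D1:**
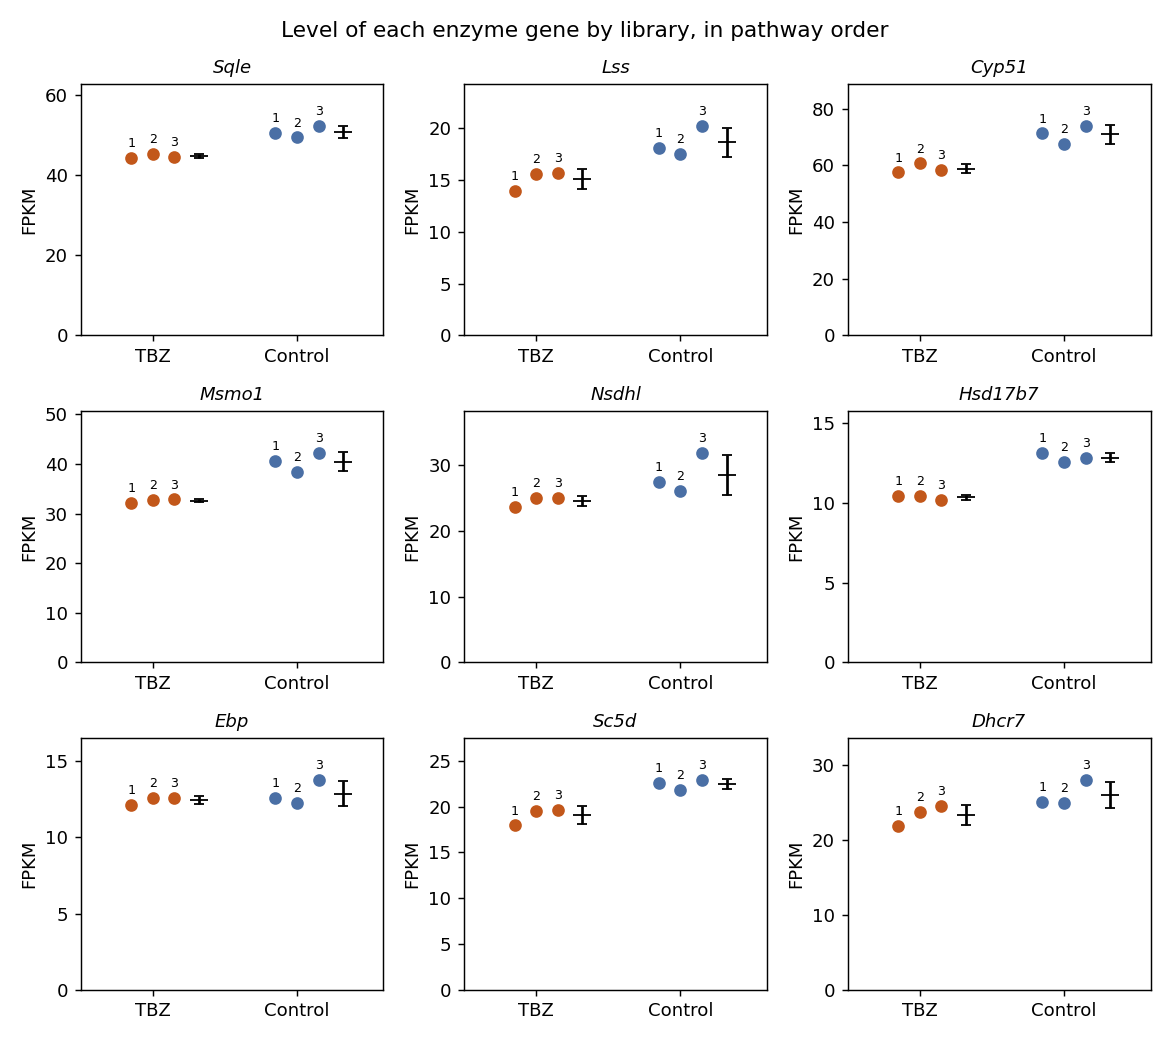
FPKM of the 9 enzyme genes in pathway order, 1 point per library with its replicate number, TBZ at the left and control at the right of each panel, with the mean and SD (n = 3 each) as a black bar beside each group; every axis starts at 0. The TBZ points lie below all control points in 8 panels and overlap them for Ebp.

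The first steps oxidise and close the squalene chain. Sqle (chr15:59315077-59331192, + strand; all spans mm10), squalene epoxidase, a control point of the pathway, stood at 44.2, 45.2 and 44.5 FPKM in TBZ replicates 1 to 3, against 50.6, 49.4 and 52.3 FPKM in control replicates 1 to 3. The groups did not overlap and the TBZ libraries lay within 1 FPKM of each other; the log2 fold change was -0.18 ± 0.04 (SE, edgeR adjusted p = 0.144). Lss (chr10:76531588-76557138, + strand), lanosterol synthase, which folds the epoxide into the ring system, had 13.9, 15.6 and 15.6 FPKM in TBZ buds and 18.1, 17.5 and 20.2 FPKM in control buds. TBZ replicate 1 was its lowest library and control replicate 3 its highest, and with a log2 fold change of -0.31 ± 0.07 (SE) Lss did not pass (edgeR adjusted p = 0.147), although its fitted reduction was about as large as that of Msmo1. Without control replicate 3 it was -0.24 (edgeR adjusted p = 0.181). An antisense gene, 4930483K19Rik, overlaps Lss and was itself counted at 2 to 9 reads per library; the library kit does not mark strand, so reads of the pair cannot be told apart.

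Cyp51 (chr5:4081145-4104746, - strand) encodes the cytochrome P450 that removes the first methyl group from lanosterol and is the target of azole drugs in fungi. It measured 57.5, 60.7 and 58.2 FPKM in TBZ replicates 1 to 3, against 71.2, 67.5 and 74.0 FPKM in control replicates 1 to 3. All TBZ libraries were below all controls, and the log2 fold change was -0.27 ± 0.05 (SE) with an edgeR adjusted p of 0.0753, the smallest of the genes that did not pass. The gene shares 166 bases with Akap9 on the opposite strand, which was itself counted at 2735 to 5359 reads per library, and reads within the shared bases cannot be assigned to either gene without strand.

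Both genes that passed belong to the complex that removes the remaining pair of methyl groups, in which Msmo1 oxidises the methyl group, Nsdhl takes it off as carbon dioxide and Hsd17b7 reduces the ketone left behind. Msmo1 (chr8:64718139-64733792, - strand) was at 32.2, 32.8 and 32.9 FPKM in TBZ replicates 1 to 3, against 40.7, 38.4 and 42.3 FPKM in control replicates 1 to 3. This was a fall of 19.2%, with a log2 fold change of -0.31 (95% interval from -0.41 to -0.21, edgeR adjusted p = 0.0395). Its TBZ libraries were closer to each other, with a coefficient of variation of 1.18%, than its controls, with 4.81%.

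Hsd17b7 (chr1:169949535-169969241, - strand) was at 10.5, 10.5 and 10.2 FPKM in TBZ replicates 1 to 3, against 13.2, 12.6 and 12.8 FPKM in control replicates 1 to 3. Its log2 fold change was -0.31 (95% interval from -0.40 to -0.21, edgeR adjusted p = 0.0292), and it had the most even libraries in control buds, with a coefficient of variation of 2.25% (1.37% in TBZ buds). Nsdhl (chrX:72918557-72958514, + strand), the third enzyme of the complex, had 23.6, 25.0 and 25.1 FPKM in TBZ buds and 27.5, 26.1 and 31.9 FPKM in control buds. Control replicate 3 was far above the other controls, with a control coefficient of variation of 10.7%, and the log2 fold change of -0.21 ± 0.07 (SE) did not pass (edgeR adjusted p = 0.389). Without control replicate 3 it was -0.12 (edgeR adjusted p = 0.453), while Msmo1 and Hsd17b7 still passed, at -0.27 and -0.31 (edgeR adjusted p = 0.0487 and 0.0463). Neither Msmo1 nor Hsd17b7 passed when any other single library was left out.

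The last steps rearrange double bonds. Ebp (chrX:8185329-8193512, - strand), the sterol isomerase, was the gene whose groups overlapped, at 12.1, 12.6 and 12.6 FPKM in TBZ replicates 1 to 3 and 12.6, 12.3 and 13.8 FPKM in control replicates 1 to 3. Its log2 fold change was -0.05, with a 95% interval from -0.18 to 0.09 (edgeR adjusted p = 0.839), and it was 0.0054 without control replicate 3. The interval includes the fitted value of Dhcr7. Its lower limit of -0.183 lay next to the fitted value of Sqle, -0.184. Whether Ebp differed from the other enzymes was not tested. Sc5d (chr9:42251595-42264256, - strand), the desaturase that makes provitamin D sterol, had 17.9, 19.5 and 19.7 FPKM in TBZ buds and 22.6, 21.9 and 22.9 FPKM in control buds. TBZ replicate 1 was lowest and the groups lay clearly apart, with a log2 fold change of -0.24 ± 0.05 (SE, edgeR adjusted p = 0.124). Dhcr7 (chr7:143823145-143848410, + strand), the reductase that is mutated in human Smith-Lemli-Opitz syndrome, had 21.9, 23.7 and 24.5 FPKM in TBZ buds and 25.1, 24.9 and 28.0 FPKM in control buds. TBZ replicate 3 came within 1 FPKM of control replicate 2, and the log2 fold change was -0.15 ± 0.06 (SE, edgeR adjusted p = 0.470). Without control replicate 3 it was -0.092 (edgeR adjusted p = 0.617).

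Relative to each gene's control mean, the median enzyme gene was at -0.30, -0.20 and -0.19 (log2 CPM) in TBZ replicates 1 to 3 and at -0.0055, -0.068 and 0.065 in control replicates 1 to 3. TBZ replicate 1 was thus lowest and control replicate 3 highest. The summed stomach and oesophagus markers were also lowest in TBZ replicate 1 (75.2 CPM) and highest in control replicate 3 (180 CPM). Different markers were behind these extremes: Barx1 was lowest in TBZ replicate 1 (68.5 CPM), and Pitx1 (47.8 CPM) and Sox2 (12.7 CPM) were highest in control replicate 3. Whether the markers and the enzymes are linked was not tested. The genes varied in parallel: the Pearson correlation of each gene's log2 CPM with the mean profile of the other 8, over 6 libraries that share the group difference, was between 0.86 (Hsd17b7) and 0.99 (Lss), and 0.70 for Ebp. Hsd17b7 differed from the rest in control replicate 3, where it did not rise with the others (-0.00098, against 0.17 for Nsdhl).

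**Figure D2:**
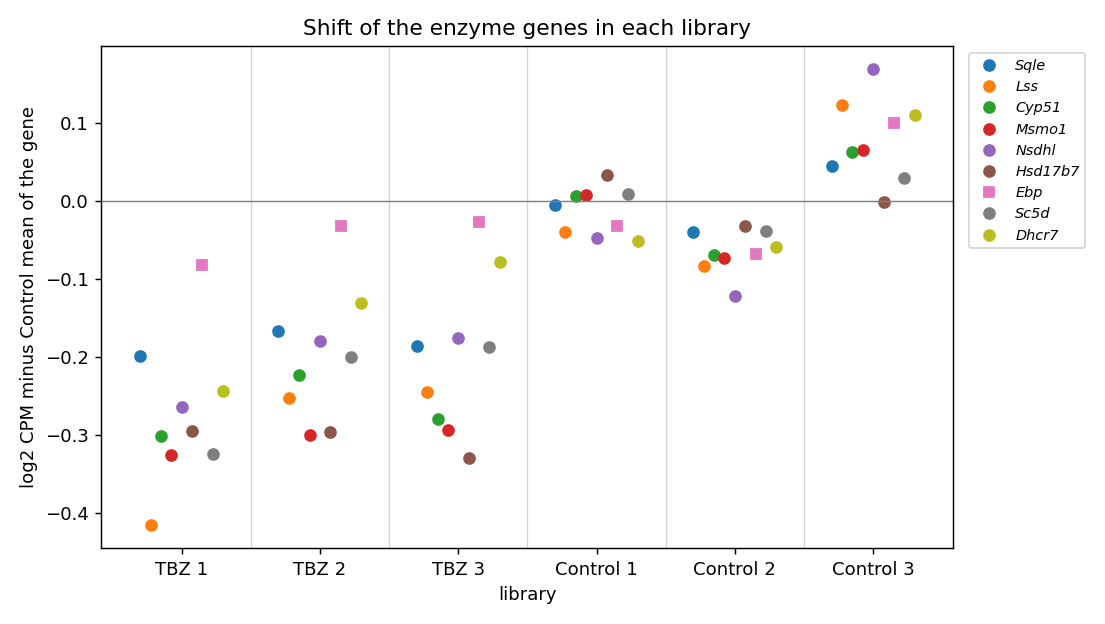
Log2 CPM of each of the 9 enzyme genes minus its own control mean (y axis) in the 3 TBZ and 3 control libraries (x axis), 1 point per gene, with Ebp as squares. In TBZ libraries 8 genes lie between -0.42 and -0.078 and Ebp between -0.083 and -0.027, and in control replicate 3 most genes lie above 0.

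Ebp moved least, and its share of the summed FPKM was higher in TBZ buds. Ebp made up 5.19%, 5.12% and 5.18% of the summed FPKM of the 9 genes in TBZ replicates 1 to 3, against 4.47%, 4.53% and 4.62% in control replicates 1 to 3. The log2 ratio of Hsd17b7 to Ebp was -0.26 ± 0.046 in TBZ and -0.00071 ± 0.089 in control buds (SD, n = 3 each), and that of Msmo1 to Ebp was 1.39 ± 0.014 in TBZ and 1.65 ± 0.038 in control buds. The ratio to Ebp was lower in every TBZ library than in every control library for all 8 other enzymes, as it was for 3.63% of the other tested genes. Ebp was picked for this ratio after its values were seen, so no test was made. As it was the enzyme that moved least, lower mean ratios of the other enzymes followed from that choice. A ratio within a library shows unequal change and does not show which of the genes moved.

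The steps before squalene gave values of similar size; the difference between the lists was not tested. All 8 genes of the mevalonate list were below 0, with a median log2 fold change of -0.23, and 0 passed with edgeR; 7 had an unadjusted p under 0.05, against 4.54% of all tested genes lower at that p, and 2 fell with DESeq2, against 0.335% of all genes it adjusted. The smallest p-values belonged to Hmgcs1, the HMG-CoA synthase (log2 -0.23, edgeR adjusted p = 0.128), Mvd, the mevalonate diphosphate decarboxylase (-0.33, adjusted p = 0.164), and Idi1, the isopentenyl diphosphate isomerase (-0.19, adjusted p = 0.237). Hmgcs1 and Mvd were the 2 that fell with DESeq2. By the same measures 8 of the 9 post-squalene enzymes had an unadjusted p under 0.05 and 6 fell with DESeq2.

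Other proteins of the post-squalene part gave smaller or similar values. Tm7sf2 and Lbr both reduce the double bond left by Cyp51. Tm7sf2 had 40.6, 45.2 and 48.5 CPM in TBZ replicates 1 to 3 and 56.0, 50.8 and 60.7 CPM in control replicates 1 to 3 (log2 -0.32 ± 0.08 SE, edgeR adjusted p = 0.210; it fell with DESeq2, adjusted p = 0.0234). Lbr, which is also a nuclear lamina receptor, was at -0.10 (log2, edgeR adjusted p = 0.470), Erg28, the scaffold of the demethylation complex, at -0.12 (0.432). Of this list of 3, all were below 0 and 0 passed with edgeR. At an unadjusted p under 0.05 all 3 were lower, against 4.54% of all tested genes. With DESeq2 1 fell, against 0.335% of all genes it adjusted.

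The enzymes that feed electrons to the pathway did not show a common direction. Of 5 genes, 4 were below and 1 above 0, with a median log2 fold change of -0.04. With edgeR or DESeq2 0 passed, and at an unadjusted p under 0.05 edgeR had 1 lower and 1 higher. Of all tested genes, 4.54% were lower and 5.08% higher at that p. Cyb5a, the cytochrome that passes electrons to desaturases, was at -0.18 (log2, edgeR adjusted p = 0.323), Cyb5r3, its reductase, at 0.10 (0.461) and Cyb5b at -0.04 (0.791). Cyb5r3 lay above control in every TBZ library, at 219, 209 and 217 CPM against 202, 202 and 198 CPM in control replicates 1 to 3. Of all tested genes, 1543 of 18226 lay wholly above control in this way. Cyb5a lay wholly below control, as did 7.03% of all tested genes.

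Among 10 genes of SREBP control and sterol uptake, 6 were below and 4 above 0 (median log2 -0.0076), and 0 passed with edgeR. At an unadjusted p under 0.05, 2 were lower, against 4.54% of all tested genes. With DESeq2 1 gene fell, against 0.335% of all genes it adjusted. That gene was Insig1, a sterol-induced retention protein and SREBP target (log2 -0.20 ± 0.04 SE, edgeR adjusted p = 0.155, DESeq2 adjusted p = 0.0193). It was at 180, 183 and 188 CPM in TBZ replicates 1 to 3 and 206, 206 and 221 CPM in control replicates 1 to 3. Npc2, which carries cholesterol out of lysosomes, was at -0.09 (edgeR adjusted p = 0.496) and Stard4, a cytosolic sterol carrier, at -0.10 (0.537). Srebf2 itself, which encodes SREBP2, was at -0.07 ± 0.04 (SE).

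Genes for the breakdown of sterol enzymes lay close to 0. Of 4, 1 was below and 3 above 0 (median log2 0.04), with 0 past the edgeR or DESeq2 threshold. At an unadjusted p under 0.05, 1 was higher, against 5.08% of all tested genes. The smallest p-values were those of Faf2 (log2 0.10, edgeR adjusted p = 0.485), Syvn1 (0.08, 0.645), both parts of the machinery that removes proteins from the endoplasmic reticulum, and Rnf145, a ubiquitin ligase (-0.01, 0.947). Of 10 genes of sterol efflux, esterification and oxysterol formation, 7 were below and 3 above 0 (median log2 -0.08), with 0 past either threshold and 0 at an unadjusted p under 0.05. Nr1h3, the oxysterol receptor LXR-alpha, was at -0.46 ± 0.23 (SE, edgeR adjusted p = 0.559). Its level was low, with a mean of 1.66 CPM in TBZ and 2.29 CPM in control buds, and its groups overlapped. Mylip was at -0.17 ± 0.09 (SE, edgeR adjusted p = 0.599) and Abcg1, a cholesterol exporter, at 0.19 ± 0.11 (SE, 0.626).

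**Figure D3:**
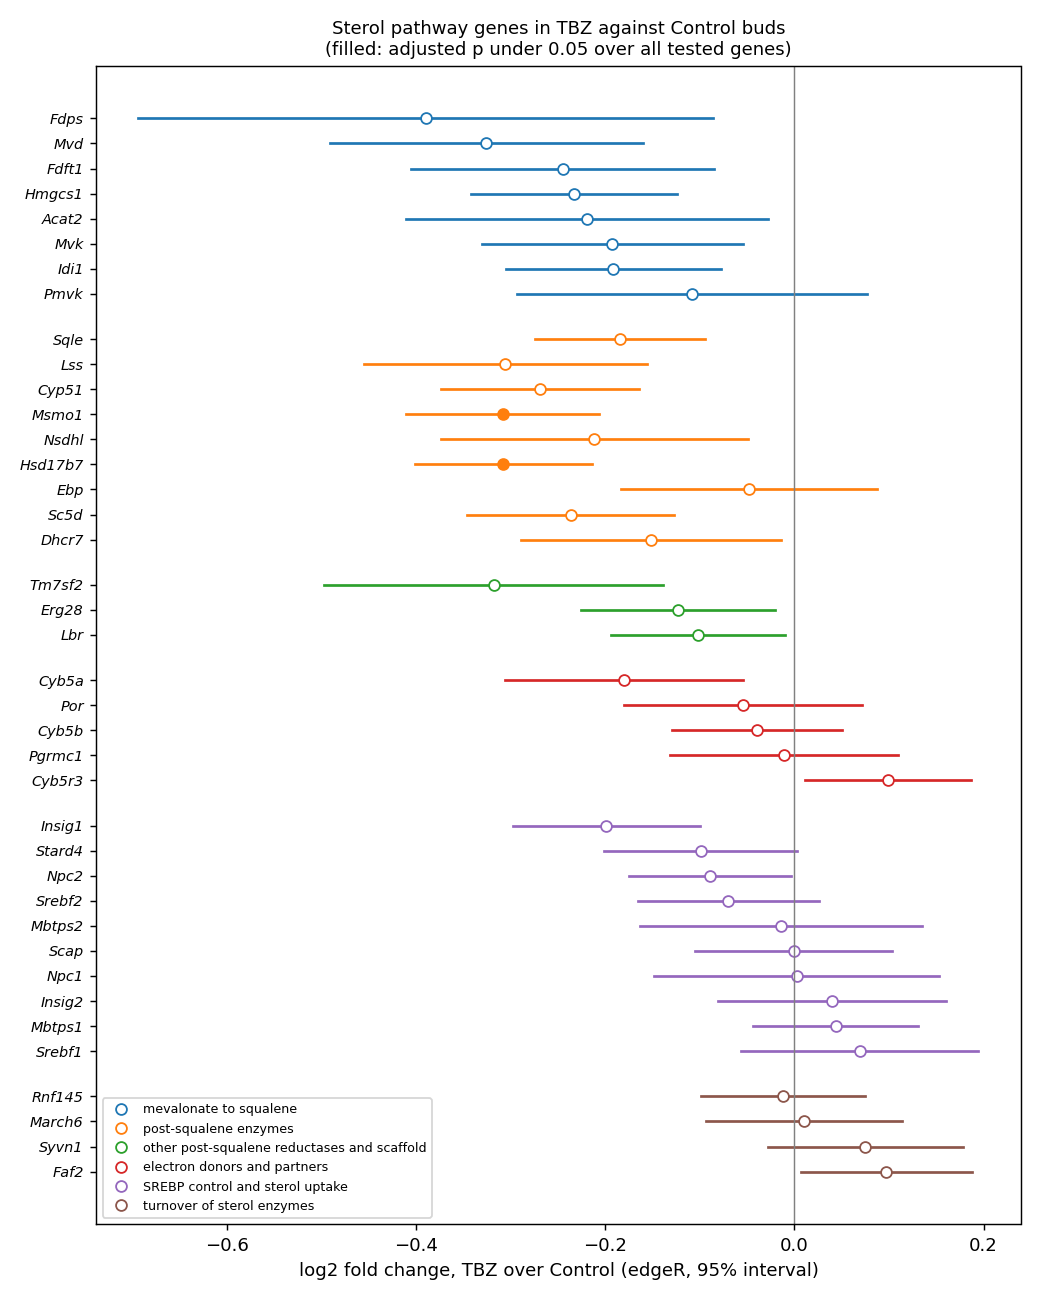
Log2 fold change of TBZ over control (x axis, edgeR, with 95% interval) for the mevalonate genes, the 9 post-squalene enzymes, and the other sterol lists down the page; filled points passed the adjusted p over all tested genes. Msmo1 and Hsd17b7 are the filled points at -0.31, all mevalonate genes lie below 0, and the turnover genes lie around 0.

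Among 12101 other protein-coding genes with a mean of at least 1 FPKM, the 5 whose log2 CPM followed the mean profile of the 9 enzymes most closely over the 6 libraries included Ccp110 (Pearson r = 0.996), Gm266 (0.991), Slc25a22 (0.991) and Esco2 (0.983). Such values describe 6 libraries and come from a search over many genes. Ccp110, a centriole protein, had a log2 fold change of -0.13 and Slc25a22, a mitochondrial glutamate carrier, of -0.24 (edgeR adjusted p = 0.373 and 0.221).

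Acinar markers were higher in TBZ buds. The 5 acinar markers summed to between 3417 and 3924 CPM (here without TMM scaling) in TBZ and between 2160.5 and 2495 in control buds, and 5 of 5 rose past the edgeR threshold, as did 0.154% of all tested genes; of the 34 genes changed in all, 28 rose and 6 fell. The 6 markers of pancreatic epithelium summed to between 1274 and 1417 CPM in TBZ and between 1087 and 1159 in control buds, and 0 of 6 passed with edgeR (4 higher at an unadjusted p under 0.05, against 5.08% of all tested genes, and 3 with DESeq2, against 1.09% of the genes it adjusted). The 5 endocrine markers were all above 0 and their sums overlapped, at 348 to 537 CPM in TBZ and 337 to 409 in control buds; 0 passed with edgeR, 2 were higher at an unadjusted p under 0.05 and 1 rose with DESeq2. That gene, Neurog3, which drives endocrine fate, was named after its values were seen (log2 0.43, edgeR adjusted p = 0.124, DESeq2 adjusted p = 0.000334).

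The sums of all other marker lists overlapped between groups, with 0 members past the edgeR or DESeq2 threshold. The 5 stomach and oesophagus markers, of which 4 were tested, summed to 75.2 to 119 CPM in TBZ and 107 to 180 in control buds. The control range was 107 to 121 without control replicate 3. At an unadjusted p under 0.05, 2 of these markers were lower, against 4.54% of all tested genes. The 4 erythroid markers summed to 264 to 329 CPM in TBZ and 320 to 376 in control buds, and the 4 neural crest markers to 20.4 to 22.9 in TBZ and 20.9 to 39.6 in control buds. Without control replicate 3 the control sums were 320 to 348 for the erythroid and 20.9 to 25.3 for the neural crest markers. All 4 erythroid and all 4 neural crest markers were below 0, as were 49.9% of all tested genes. At an unadjusted p under 0.05, 2 erythroid markers and 1 neural crest marker were lower, against the same 4.54%. The 5 hepatocyte markers, a cell type with high sterol synthesis, summed to 15.5 to 19.6 CPM in TBZ and 16.9 to 22.5 in control buds. No marker in these lists was at 0 in all libraries. The part of the marker differences in the lower enzyme levels was not tested. Mitochondrial transcripts took 0.676% to 0.823% of counts in TBZ and 0.751% to 0.927% in control buds.

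How many of the enzymes passed depended on the test. With DESeq2 on the same counts 6 fell (Sqle, Lss, Cyp51, Msmo1, Hsd17b7 and Sc5d), against 0.335% of all genes it adjusted. In the authors' deposited table these 6 are lower at an adjusted p under 0.05 (6 of 6 shared). So are 0.18% of all its genes that have an adjusted p. The deposited adjusted p of the 6 enzymes ran from 6.14e-06 for Msmo1 to 0.0172 for Sqle. The deposited log2 fold changes equal those of DESeq2 to within 2.5e-07, so the shared calls are not separate support. Nsdhl, Dhcr7 and Ebp did not pass in the authors' deposited table (adjusted p = 0.219, 0.431 and 0.978). In the edgeR test Msmo1 and Hsd17b7 passed in 1 of the 6 fits that left out a library, the one without control replicate 3. Without any other single library neither passed, with edgeR adjusted p from 0.0673 to 0.242 for Msmo1 and from 0.0662 to 0.223 for Hsd17b7, while their log2 fold changes stayed between -0.34 and -0.27 and between -0.32 and -0.29 over the 6 fits.

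**Figure D4:**
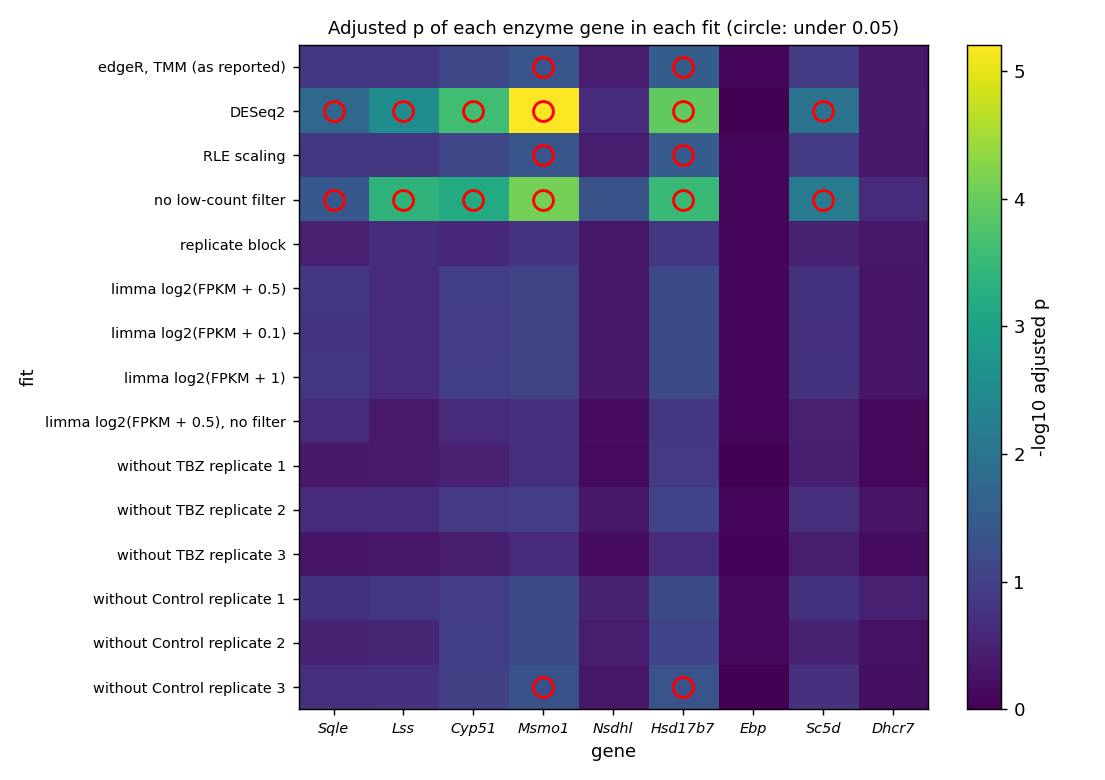
Adjusted p, as -log10 in colour, of the 9 enzyme genes (x axis) in the edgeR fit reported here and in 14 other fits (y axis); a red circle marks an adjusted p under 0.05. Msmo1 and Hsd17b7 are circled in 5 fits each, Sqle, Lss, Cyp51 and Sc5d in 2, and Nsdhl, Ebp and Dhcr7 in 0.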

How the data were processed

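Poly-A RNA from 3 TBZ and 3 control libraries of cultured mouse pancreatic bud was sequenced with paired ends. STAR alignment, HTSeq counting and the mm10 build are named in the submitters' processing notes, with no version. The deposited table holds read counts per gene without normalization, per the file headers, and FPKM values that the authors computed per deposited gene length. Its signal columns (deposited group means of scaled counts), log2 fold changes, p-values and adjusted p-values were made by the authors with a tool not given in the sources used here. DESeq2 gave the same log2 fold changes for the 9 enzymes to within 2.5e-07.

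Counts were tested with edgeR 4.0.16 in R 4.3.3 (quasi-likelihood, TMM, filterByExpr, Benjamini-Hochberg over 18226 genes, threshold 0.05). The SE was taken from the fit by dividing the size of the log2 fold change by the root of its F statistic, and intervals are at 95%. Alternatives were DESeq2 1.42.0, RLE scaling, no filter, a replicate block, limma 3.58.1 on log2(FPKM + 0.5), with pseudocounts of 0.1 and 1 or without its minimum mean of 0.5 FPKM, and leaving out each library. CPM of marker sums are not TMM-scaled; other CPM are. The 9 enzymes, the lists and the tests were chosen with earlier results of these data known. All 9 enzymes are named, with 3 genes of smallest p per other pathway list and 4 of the 5 closest profiles; Srebf2 was added by choice. Some genes of these lists are not reported here and were left out of the counts. Intervals and counting errors cover counting and the spread of these libraries only. A deposited span was the same as in GENCODE M21 for 9 of 9 enzymes.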

Additional observations from a re-analysis of the deposited data

How the results depend on the processing

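The direction was kept in 125 of 126 combinations of the 9 enzymes with 14 alternatives, the exception being Ebp, which ran from -0.081 to 0.0054 without single libraries, the highest without control replicate 3. The median log2 fold change of the enzymes was -0.27 to -0.20 without single libraries. Enzymes that fell numbered 2 with edgeR, 6 with DESeq2 and 6 with no low-count filter. That last fit changed 445 of 31250 genes in either direction. With limma on FPKM 0 fell at each pseudocount and filter, and without single libraries 0 to 2 fell. Limma had 8 enzymes lower at an unadjusted p under 0.05, or 7 with no FPKM filter. In either direction, 1505, 1503 and 1509 of 15257 genes reached that p with limma at pseudocounts of 0.5, 0.1 and 1. Genes changed in all numbered 34 with edgeR, 222 with DESeq2 and 445 with no low-count filter. With limma 14, 13 and 14 changed at pseudocounts of 0.5, 0.1 and 1. With limma and no FPKM filter 0 changed, and 2135 of 31250 genes reached an unadjusted p under 0.05. Without single libraries 5 to 36 genes changed. The cause of these differences was not tested. RLE scaling gave 34 genes and 2 enzymes.

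With the replicate number as a block, 5 genes changed and 0 enzymes fell, with 8 enzymes lower at an unadjusted p under 0.05. In either direction, 1548 of 18226 genes reached that p. The edgeR adjusted p was 0.149 for Hsd17b7 and 0.157 for Msmo1, and the median log2 fold change of the enzymes was -0.24. Deviations from the group means correlated at 0.0017, -0.15 and -0.077 for TBZ and control libraries of the same number, replicates 1 to 3. For unlike numbers the correlations ran from -0.088 to 0.15. With 3 libraries per group these values cannot settle whether the numbers pair the libraries. Counting error at the lowest count of each enzyme was 1.04% to 3.10%, beside a coefficient of variation between libraries of 1.10% to 6.57% in TBZ and 2.25% to 10.7% in control buds; it was above the TBZ variation for Hsd17b7 and Ebp.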
